A study of Mus musculus with 12 samples.

Results

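The collagen genes of 12 subcutaneous mouse tumors were examined, taken as every symbol of the form Col, a number, a and a number. Of 44 such symbols among the 34678 in the deposited tables, 25 averaged 0.1 FPKM or more in the 12 tumors, and these 25 are described here. FPKM is the number of fragments mapped to a gene scaled to its length and to the fragments of the library, so that levels can be compared between genes. The lowest member was Col13a1, with a mean of 0.121 FPKM, and the highest symbol left out was Col23a1, with a mean of 0.0789 FPKM. All 25 were above 0 in every tumor, whereas 16 of the 19 symbols left out were listed at 0 in at least 1 tumor. Col28a1 passed through the palbociclib arm, since its mean over the other 3 arms was 0.0868 FPKM.

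The tumors were grown under the skin of C57BL/6 mice from LLC1-shLkb1 cells, a Lewis lung carcinoma line that carries a short hairpin RNA against Lkb1 (Stk11) in every arm, the control included. Mice of both sexes, 5 to 8 weeks old, received vehicle, the CDK4/6 inhibitor palbociclib (100 mg/kg by mouth), an anti-PD-1 antibody (200 µg per mouse), or both agents together (the combination arm), with collection after 2 weeks. Each of the 4 arms had 3 tumors. There was no tumor without the hairpin to compare with, the cells were a single implanted line, and the site was the skin rather than the lung.

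Collagens are the main structural proteins of the extracellular matrix, wound from chains into triple helices. Fibrillar collagens (types I, III and V) form the fibers of connective tissue, type IV collagen forms the sheet-like network of basement membranes around vessels and epithelia, type VI forms beaded filaments, and FACIT collagens such as type XII sit on the surface of fibrils. In tumors, fibroblasts make much of the fibrillar collagen, and both vessels and cancer cells can make type IV collagen.

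Several samples held transcripts of other tissues. A list of 6 skeletal muscle genes summed to 52.0 FPKM in vehicle 1, 151 in palbociclib 3 and 146 in combination 2, against at most 9.80 in the other 9 tumors. A list of 6 adipose genes summed to 391 FPKM in palbociclib 1 and 943 in combination 1, and a list of 7 skin epithelium genes summed to 367.2 FPKM in palbociclib 2 and at most 1.17 elsewhere. The adipose list was also at 15.7 FPKM in palbociclib 2, 35.9 in palbociclib 3 and 16.3 in combination 2, so that 5 of the 6 palbociclib-treated tumors were above the 6 others (at most 4.75), the exception being combination 3 (1.29). All 6 members of the adipose list had a positive palbociclib effect, as had 59.8% of all genes tested, and none was called. Of the markers of cancer cells, Krt8 lay between 62.0 and 276 FPKM, whereas Epcam did not exceed 1.81 and Krt18 did not exceed 5.08 FPKM. Stk11 lay between 7.90 and 11.5 FPKM. The depth was estimated from the steps of low values at 14800000 to 20200000 fragments per tumor.

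The upstream sequence of a fibrillar gene that differed widely between tumors, Col1a2, and of one that did not, Col3a1, are shown to set the genes apart before their values. RefSeq start sites on GRCm38.p6 were found for 20 of the 25 members, and Col1a1, Col5a2, Col9a3, Col12a1 and Col14a1 were not matched. The 250 bases before the start of Col1a2 lie at chr6:4505368-4505617 and those of Col3a1 at chr1:45311288-45311537, both on the plus strand. Capitals mark a CCAAT box, a GC box (GGGCGG) or a TATA box (TATAAA), each searched on both strands. The matches shown do not overlap.
Col1a2: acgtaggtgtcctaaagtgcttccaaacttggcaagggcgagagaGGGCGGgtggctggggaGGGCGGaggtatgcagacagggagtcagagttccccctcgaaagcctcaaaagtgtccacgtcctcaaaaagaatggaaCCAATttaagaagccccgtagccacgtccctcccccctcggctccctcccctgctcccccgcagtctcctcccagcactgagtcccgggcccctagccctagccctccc
Col3a1: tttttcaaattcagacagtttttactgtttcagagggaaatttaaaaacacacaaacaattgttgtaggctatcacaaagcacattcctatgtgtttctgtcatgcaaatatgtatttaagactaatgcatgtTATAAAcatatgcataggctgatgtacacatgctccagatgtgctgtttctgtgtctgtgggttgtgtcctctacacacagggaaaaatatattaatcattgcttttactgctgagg
The Col1a2 stretch held 62.0% G and C, 1 CCAAT and 2 GGGCGG, while the Col3a1 stretch held 35.2% G and C and 1 TATAAA. Over all 27025 genes in the RefSeq table the median was 52.0% G and C, and 34.5% of genes held CCAAT, 32.9% GGGCGG and 13.0% TATAAA in the same window. Among the 20 collagen genes, 8 held CCAAT, 10 GGGCGG and 4 TATAAA. Such a match is a description of the letters and not of a site in use.

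Summed over the 44 symbols, collagen made up 0.193% to 0.380% of the FPKM of a tumor. The sum was 853 ± 156 FPKM (mean ± SD, n = 3) with vehicle, 780 ± 139 under palbociclib, 626 ± 88.3 under anti-PD-1 and 603 ± 74.8 under the combination. The lowest vehicle tumor (707 FPKM) was above the highest tumor of both the anti-PD-1 arm (697) and the combination arm (683), whereas the palbociclib arm (623 to 888) overlapped with vehicle. Fibrillar collagens took 38.8% to 54.0% of the sum, beaded filaments 20.2% to 33.2%, basement membrane collagens 9.39% to 23.2% and FACIT collagens 4.40% to 6.86%. Col3a1 alone took 21.6% to 38.3% and Col6a1 15.8% to 23.8%, and Col1a1 between 0.128% and 5.70%. The low share of type I against type III was thus found in all 12 tumors, with 5.71 to 281 times as much Col3a1 as Col1a1 per unit of length.

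**Figure D1:**
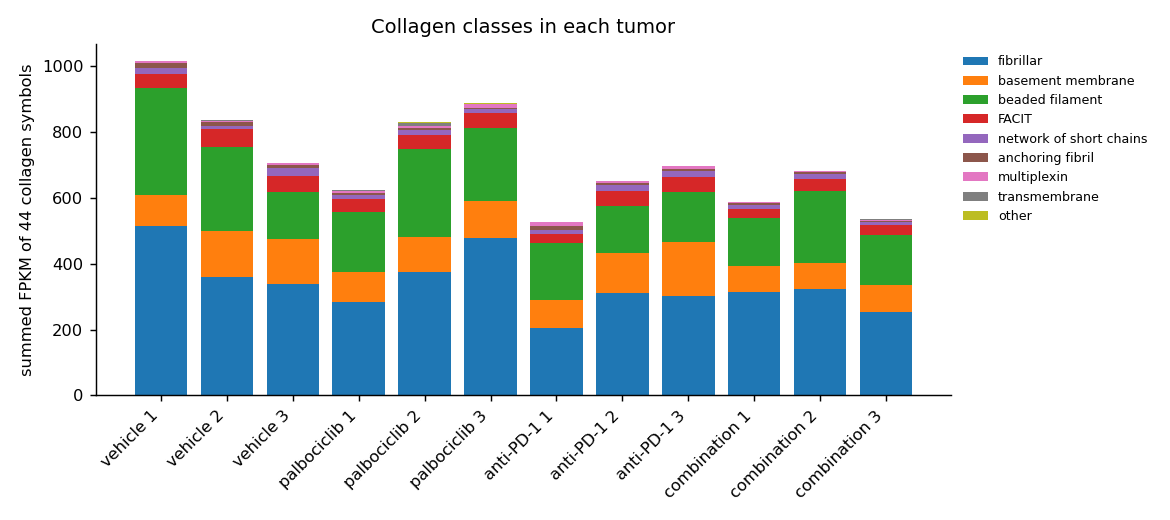
Summed FPKM of the 44 collagen symbols in each of the 12 tumors (1 bar per tumor), stacked by structural class. Fibrillar collagens form the largest block in every bar, and the totals run from 527 FPKM in anti-PD-1 1 to 1017 FPKM in vehicle 1.

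**Figure D2:**
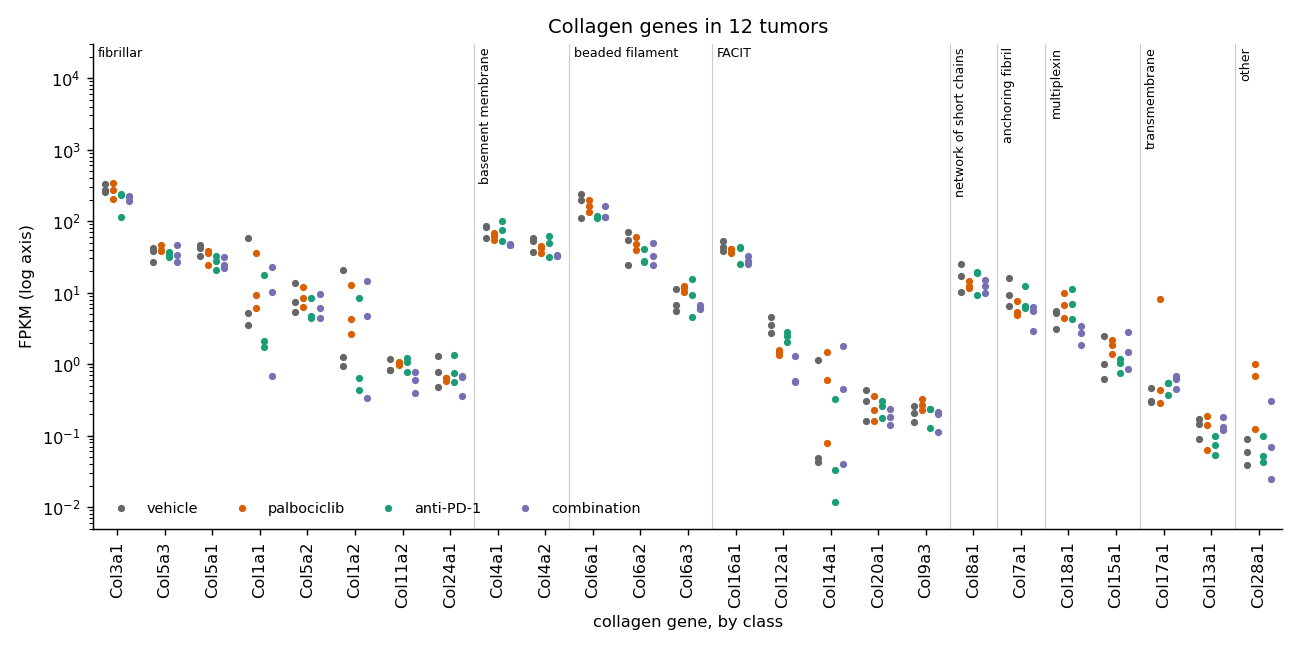
FPKM (log axis) of the 25 collagen genes in the 12 tumors, grouped by class. Each point is 1 tumor, colored by arm. Col1a1, Col1a2 and Col14a1 spread over more than 60-fold between tumors, most other genes over less than 4-fold, and the 6 Col12a1 points of the palbociclib and combination arms lie below the other 6.

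Differences between arms were tested with limma on log2(FPKM + 0.1) over all 15350 genes at 0.1 FPKM or more on average, with Benjamini-Hochberg adjustment over all of them and a threshold of 0.05. The palbociclib effect is the average of palbociclib against vehicle and combination against anti-PD-1, so that 6 tumors that had palbociclib are compared with 6 that had not. In this contrast 1 of the 25 collagen genes was called, Col12a1, which fell. Over all genes tested 0.313% were called, 0.0651% lower and 0.248% higher. At an unadjusted p under 0.05, 5 of 25 collagen genes (20.0%) were past the threshold, beside 20.5% of all genes. The median palbociclib effect of the 25 was 0.04 on the log2 scale, and that of all genes 0.06.

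Col12a1 (chr9:79598987-79721141) encodes the chain of type XII collagen, a FACIT collagen that binds to type I fibrils. Its level was 4.55, 2.75 and 3.50 FPKM in the vehicle tumors, 1.56, 1.33 and 1.49 under palbociclib, 2.04, 2.47 and 2.81 under anti-PD-1, and 0.575, 1.30 and 0.562 under the combination. All 6 palbociclib-treated tumors were below all 6 others, a separation in this direction that 0.410% of all genes tested had. The arm means were 3.60 ± 0.905 (SD, n = 3), 1.46 ± 0.116, 2.44 ± 0.384 and 0.814 ± 0.425 FPKM, so the vehicle arm was highest and the combination arm lowest, and the palbociclib and combination arms did not overlap.

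The palbociclib effect on Col12a1 was -1.39 on the log2 scale (SE 0.20, limma adjusted p = 0.0383), that is, 0.382 times the level without palbociclib (95% confidence interval 0.281 to 0.519). A two-sided exact permutation test over 400 relabelings of the tumors gave p = 0.005, the smallest it can give. This value follows from the separation above, is not adjusted over genes and is no separate support. The same permutation test gave p = 0.03 for Col4a1 and p = 0.04 for Col7a1, and it was run on no other gene. These values are not adjusted over genes either, and the limma adjusted p of the 2 genes were 0.137 and 0.173, not past the threshold. Within the separate comparisons, the difference was -1.22 (SE 0.28) for palbociclib against vehicle, with a limma adjusted p of 0.131, and -1.56 (SE 0.28) for combination against anti-PD-1, with an adjusted p of 0.306. For the combination against vehicle it was -2.08 (SE 0.28), adjusted p = 0.0737. The interaction, the difference between the palbociclib effects with and without anti-PD-1, was -0.34 (SE 0.40) with an adjusted p of 0.950.

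The Col12a1 call was lost on leaving out most single tumors, although the effect stayed negative. Over the same omissions the number of all genes called ran from 0 to 772, against 48 with all 12 tumors. Leaving out 1 tumor at a time kept the effect between -1.57 and -1.29, but the limma adjusted p ranged from 0.00286 to 0.122 and was above 0.05 in 9 of 12 cases, namely all but the omission of vehicle 1 (0.0280), anti-PD-1 1 (0.0208) and combination 2 (0.00286). In tumors lower in muscle, fat and skin genes, vehicle 2 and 3 and anti-PD-1 2 and 3 had 2.47 to 3.50 FPKM of Col12a1. Combination 3 had 0.562 FPKM, and no palbociclib tumor was free of such genes. The muscle list was at 6.04 FPKM in combination 3 and at 0.729 to 1.25 in the untreated tumors named. With 1 treated tumor and no set cutoff, this is a description and no comparison free of other tissue. Of 10 fibroblast markers none passed the threshold in the palbociclib effect. At an unadjusted p under 0.05 were 3 of the 10, beside 20.5% of all genes tested. These 3 went in both directions, with effects of -0.44 for Pdgfra, -0.59 for Pdgfrb and 1.02 for Dpt. Dpt was the largest part of the sum of the 10 markers in most tumors. This sum ran from 116 to 287 FPKM in the 6 treated tumors and from 71.6 to 153 in the 6 others. The part of these tissues in the Col12a1 values was not tested. In whole tumors, fewer cells of a type and less RNA per cell cannot be told apart.

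**Figure D3:**
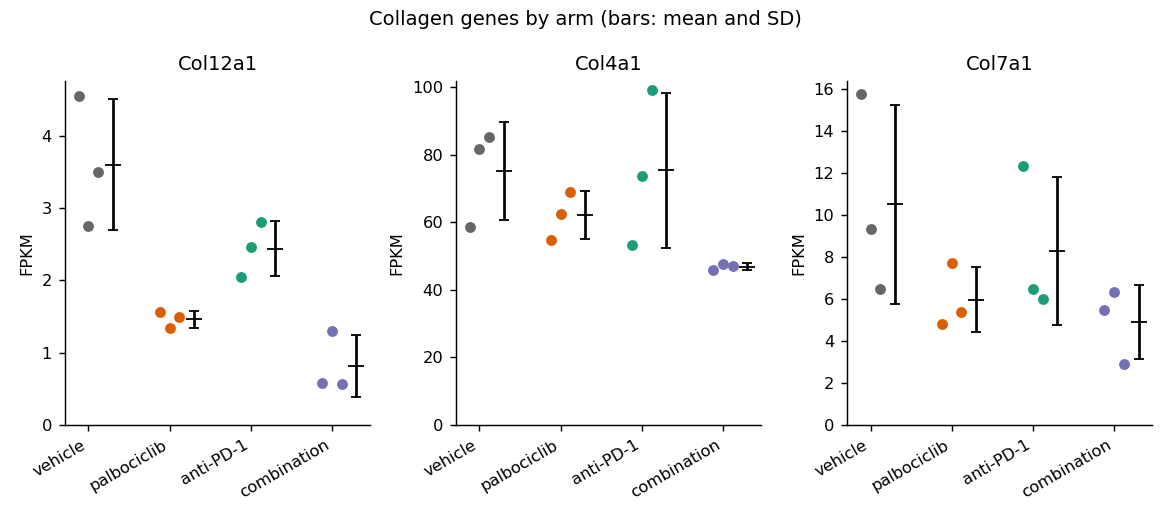
FPKM of Col12a1, Col4a1 and Col7a1 by arm, with 1 point per tumor and the mean ± SD (n = 3) beside it. Col12a1 in the palbociclib and combination tumors lies at or below 1.56 FPKM and in the others at or above 2.04, whereas the arms overlap for Col4a1 and Col7a1, except that the combination lies below all other arms for Col4a1 and below vehicle for Col7a1.

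None of the other FACIT collagens was called. Col16a1 (chr4:130047817-130099277), the most abundant of the class, had 38.7, 51.8 and 44.1 FPKM under vehicle, 36.0, 40.9 and 40.4 under palbociclib, 24.8, 41.9 and 42.8 under anti-PD-1 and 25.2, 32.7 and 27.9 under the combination. The combination tumors were below all vehicle and all palbociclib tumors, but overlapped with anti-PD-1. The difference between combination and vehicle was -0.65 (SE 0.20), with a limma adjusted p of 0.199. Col14a1 (chr15:55307644-55520803), another fibril-associated chain, had 1.12, 0.0488 and 0.0424 FPKM under vehicle, 0.603, 0.0795 and 1.46 under palbociclib, 0.320, 0.0329 and 0.0116 under anti-PD-1 and 1.80, 0.451 and 0.0398 under the combination. Every arm held both high and low tumors, and the palbociclib effect of 1.25 had an SE of 0.80 (adjusted p = 0.389). Col20a1 and Col9a3 stayed between 0.111 and 0.430 FPKM, with palbociclib effects of -0.22 and 0.09. By an estimate they rest on only 259 and 166 fragments in all 12 tumors. The class median was -0.22.

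Type IV collagen was represented by Col4a1 and Col4a2, the chains of nearly all basement membranes, while Col4a3, Col4a4, Col4a5 and Col4a6 were left out by their low level. Col4a1 had 58.6, 81.8 and 85.4 FPKM under vehicle, 54.8, 62.6 and 68.9 under palbociclib, 53.3, 73.8 and 99.2 under anti-PD-1 and 45.8, 47.7 and 47.0 under the combination. All 3 combination tumors were below the 9 others. Col4a2 had 36.9, 58.0 and 52.8 FPKM under vehicle, 35.4, 45.1 and 42.2 under palbociclib, 31.5, 48.8 and 62.6 under anti-PD-1 and 32.1, 32.8 and 34.0 under the combination, where anti-PD-1 1 was lower than the combination tumors.

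The palbociclib effect was -0.45 (SE 0.15) for Col4a1 and -0.36 (SE 0.16) for Col4a2, with limma adjusted p of 0.137 and 0.239, neither past the threshold. Against vehicle, the combination differed by -0.66 (SE 0.21) and -0.55 (SE 0.23), with adjusted p of 0.203 and 0.272. Without anti-PD-1 1, the palbociclib effect on Col4a1 was -0.57 (adjusted p = 0.0349) and that on Col16a1 -0.38 (adjusted p = 0.0485), so that 3 collagen genes were called in place of 1, beside 772 of all genes in place of 48. A list of 7 endothelial markers summed to 16.8 to 24.1 FPKM in the 6 palbociclib-treated tumors. In the 6 others it summed to 23.0 to 40.2 FPKM. A list of 5 pericyte markers summed to 6.47 to 9.23 FPKM in the treated tumors and to 8.05 to 14.9 FPKM in the others. Of the 7 endothelial genes 5 were lower and none was called, while 59.8% of all genes tested had an effect above 0. At an unadjusted p under 0.05 were 4 of the 7, beside 20.5% of all genes tested. The part of vessels in the type IV values was not tested.

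The genes of Col4a1 (chr8:11198423-11312889, minus strand) and Col4a2 (chr8:11312805-11449287, plus strand) lie head to head, and their RefSeq start sites are 21 bases apart. The annotated genes overlap by 85 bases at their starts. Without knowledge of the strand setting of the counting, fragments there cannot be assigned to either gene. The ratio of Col4a1 to Col4a2 stayed between 1.38 and 1.69 in all 12 tumors. Across the 12 tumors their log2 levels had a Pearson r of 0.96 and a Spearman rho of 0.94 (permutation tests, adjusted p = 2.7e-05 and 8e-05 over 8 pairs of collagen genes), r = 0.94 without the 2 tumors farthest from the median, and r = 0.96 for deviations from the arm means.

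Of the fibrillar class, 8 of 11 symbols passed the level filter, and none of the 8 was called in any contrast. Col3a1 (chr1:45311538-45349706), the chain of type III collagen and the most abundant collagen transcript, had 331, 276 and 255 FPKM under vehicle, 201, 274 and 340 under palbociclib, 114, 233 and 235 under anti-PD-1 and 216, 223 and 192 under the combination. Anti-PD-1 and combination tumors lay below all vehicle tumors, and palbociclib tumors overlapped with every arm. The difference between anti-PD-1 and vehicle was -0.64 (SE 0.27), with a limma adjusted p of 0.583, and the palbociclib effect was 0.04 (SE 0.19).

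Col5a1 (chr2:27886381-28039510) and Col5a3 (chr9:20770050-20815117) encode chains of type V collagen, which regulates the start and width of fibrils. Col5a1 had 46.8, 42.1 and 32.9 FPKM under vehicle, 24.5, 35.5 and 37.8 under palbociclib, 20.4, 32.2 and 27.6 under anti-PD-1 and 24.1, 31.6 and 21.9 under the combination. As for Col3a1, the vehicle tumors were above all anti-PD-1 and all combination tumors, and the differences from vehicle were -0.61 (SE 0.22) and -0.65 (SE 0.22), with limma adjusted p of 0.580 and 0.213. Col5a3 had 42.6, 26.8 and 37.6 FPKM under vehicle, 38.8, 46.7 and 38.8 under palbociclib, 34.5, 36.6 and 31.4 under anti-PD-1 and 26.6, 46.5 and 33.3 under the combination. The palbociclib tumors were above all anti-PD-1 tumors, the other pairs of arms overlapped, and the palbociclib effect was 0.13 (SE 0.15).

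Type I collagen, the main fiber of skin, tendon and bone, varied widely within every arm. Col1a2 (chr6:4505618-4541543) had 20.7, 1.26 and 0.940 FPKM under vehicle, 4.20, 2.67 and 13.0 under palbociclib, 8.38, 0.643 and 0.440 under anti-PD-1 and 14.3, 4.75 and 0.335 under the combination. Col1a1 (chr11:94936224-94953042) had 58.0, 5.13 and 3.54, then 9.12, 6.08 and 36.3, then 17.7, 1.71 and 2.09, and 22.6, 10.1 and 0.685 FPKM in the same order. In both genes the 4 highest tumors were vehicle 1, palbociclib 3, anti-PD-1 1 and combination 1, 1 of each arm.

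The highest tumor had 84.7 times the Col1a1 and 61.7 times the Col1a2 of the lowest. The SD within arms on the log2 scale was 2.02 for Col1a1, 2.15 for Col1a2 and 1.60 for Col14a1, against a median of 0.47 over the 25 collagen genes and 0.24 over all genes tested. With this spread, the palbociclib effects of 0.38 (SE 0.99) and 0.93 (SE 1.06) had 95% confidence intervals of -1.81 to 2.56 and -1.40 to 3.25, both of which include a 2-fold change in either direction. Those 4 tumors were also the highest for Col5a2 among the collagen genes, and for Adamts2, Antxr1, Bgn, Creb3l1, Fkbp9, Mrc2 and Postn among 91 tested genes of the collagen pathway, whereas 0.593% of all genes tested had these 4 highest. Adamts2 removes the amino-terminal propeptide of fibrillar procollagens, and Bgn and Postn encode proteins that bind to collagen fibrils. The muscle list was high in 2 of the 4 tumors, vehicle 1 and palbociclib 3, and in anti-PD-1 1 it reached 9.80 FPKM. The adipose list was at 943 FPKM in combination 1 and 35.9 in palbociclib 3, against 3.32 in vehicle 1 and 3.26 in anti-PD-1 1. A list of 3 tendon genes summed to 0.265 to 3.26 FPKM in these 4 and to 0 to 1.26 FPKM in the other 8. The 10 fibroblast markers summed to 153 FPKM in vehicle 1, 287 in palbociclib 3 and 244 in combination 1. In anti-PD-1 1 they summed to 71.6 FPKM, the lowest of the 12. In the other 8 they summed to 105 to 187 FPKM, and the highest of these, palbociclib 2, was above vehicle 1. A list of 5 myofibroblast and smooth muscle genes summed to 28.8, 14.2, 18.1 and 15.2 FPKM in vehicle 1, palbociclib 3, anti-PD-1 1 and combination 1. In the other 8 it summed to 4.06 to 16.3 FPKM. The part of these tissues and cells was not tested.

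Col1a1 and Col1a2, which assemble into 1 molecule, had a Pearson r of 0.98 and a Spearman rho of 0.99 across the 12 tumors (permutation tests, adjusted p = 2.7e-05 and 8e-05), r = 0.98 without the 2 tumors farthest from the median and r = 0.99 for deviations from the arm means. Col1a1 and Col3a1, which often share a fibril, had r = 0.20 and rho = 0.27 (permutation tests, adjusted p = 0.609 and 0.462), and r = -0.03 within arms. Col12a1 and Col1a1 had r = 0.15 and rho = 0.01 (adjusted p = 0.646 and 0.991 by the same permutation tests). Col3a1 and Col5a2, neighbors on chromosome 1 at a distance of 24624 bases, had r = 0.34 and rho = 0.36 (permutation tests, adjusted p = 0.461 and 0.343), with r = 0.64 without the 2 farthest tumors and 0.05 within arms.

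**Figure D4:**
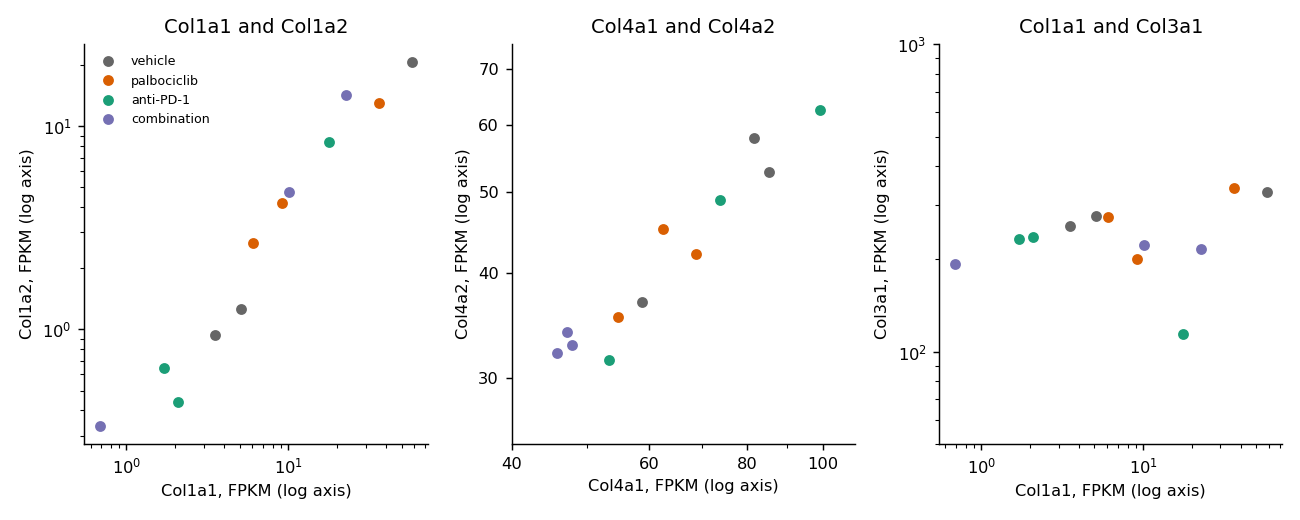
FPKM (log axes) of 3 pairs of collagen genes, with 1 point per tumor colored by arm. Col1a1 and Col1a2 rise together over nearly 2 orders of magnitude, Col4a1 and Col4a2 rise together over a 2-fold range, and Col3a1 shows no such relation to Col1a1 (Pearson r = 0.98, 0.96 and 0.20).

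Col5a1 and Col5a2, although both chains of type V, were not clearly related (r = 0.43, rho = 0.36, permutation tests, adjusted p = 0.316 and 0.343). The minor fibrillar chains Col11a2 and Col24a1 lay between 0.363 and 1.32 FPKM. Col11a2 was lower in all 3 combination tumors (0.391 to 0.780 FPKM) than in all vehicle (0.825 to 1.16) and palbociclib tumors (0.962 to 1.07), with differences of -0.62 (SE 0.25) and -0.75 (SE 0.25) and limma adjusted p of 0.252 and 0.976.

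Type VI collagen forms beaded filaments next to cells and basement membranes and was, on average, the second most abundant type after type III. Col6a1 (chr10:76708792-76726044) had 242, 196 and 112 FPKM under vehicle, 133, 195 and 163 under palbociclib, 119, 112 and 115 under anti-PD-1 and 115, 162 and 115 under the combination. The palbociclib tumors were above all anti-PD-1 tumors, the other pairs of arms overlapped, and the palbociclib effect was 0.03 (SE 0.18). Col6a2, which lies on the same chromosome, followed Col6a1 across the 12 tumors (r = 0.93, rho = 0.91, permutation tests, adjusted p = 2.7e-05 and 0.000453, and r = 0.94 within arms), with a ratio of 2.94 to 4.74. Col6a3, the third chain, on chromosome 1, did not (r = 0.30, rho = 0.39, permutation tests, adjusted p = 0.461 and 0.343), and the ratio of Col6a1 to Col6a3 ran from 7.60 to 35.2. Col6a3 was lower in all combination tumors (5.81 to 6.72 FPKM) than in all palbociclib tumors (10.1 to 12.4), with a difference of -0.85 (SE 0.37) and a limma adjusted p of 1.

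Of the remaining classes, Col8a1 (chr16:57624256-57754737), a short-chain collagen of vessel walls, had 17.0, 10.3 and 25.2 FPKM under vehicle, 12.2, 14.4 and 11.5 under palbociclib, 9.38, 19.0 and 19.6 under anti-PD-1 and 12.4, 15.2 and 9.95 under the combination. All arms overlapped. Col7a1 (chr9:108953586-108984875), the anchoring fibril that ties epithelium to dermis, had 15.7, 9.34 and 6.47 FPKM under vehicle, 4.78, 7.71 and 5.38 under palbociclib, 12.3, 6.46 and 6.01 under anti-PD-1 and 5.45, 6.32 and 2.90 under the combination. The combination tumors were below the vehicle tumors, and the palbociclib effect was -0.74 (SE 0.27), with a limma adjusted p of 0.173.

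Col18a1 (chr10:77052178-77166530), a basement membrane proteoglycan whose end fragment is endostatin, had 3.06, 5.23 and 5.61 FPKM under vehicle, 6.61, 4.47 and 9.90 under palbociclib, 11.2, 4.23 and 7.02 under anti-PD-1 and 1.87, 2.74 and 3.36 under the combination. The combination tumors lay below all tumors of both single treatments and overlapped with vehicle. The interaction was -1.95 (SE 0.55), the lowest unadjusted p of the 25 in that contrast (0.00447), but the limma adjusted p was 0.757. Col15a1, the other multiplexin, ran from 0.624 to 2.78 FPKM, with overlap of all arms except palbociclib (1.39 to 2.17) and anti-PD-1 (0.762 to 1.18).

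Col17a1 (chr19:47646341-47692042), a transmembrane collagen of hemidesmosomes in skin epithelium, had 0.308, 0.299 and 0.462 FPKM under vehicle, 0.431, 8.06 and 0.288 under palbociclib, 0.547, 0.370 and 0.540 under anti-PD-1 and 0.615, 0.444 and 0.676 under the combination. Palbociclib 2 was the highest, and the 11 others lay at or below 0.676 FPKM. Palbociclib 2 is also the tumor with the skin epithelium list, of which Krt14 was at 178 FPKM there and at most 0.533 FPKM elsewhere. Without this tumor, which held the 1 high value, the palbociclib effect on Col17a1 moved from 0.81 to 0.11. The part of skin in that value was not tested. Col28a1 (chr6:7997100-8193709) had 0.0896, 0.0386 and 0.0586 FPKM under vehicle, 0.122, 1.01 and 0.682 under palbociclib, 0.0518, 0.0971 and 0.0428 under anti-PD-1 and 0.309, 0.0693 and 0.0245 under the combination. Its level in the palbociclib arm is what brought it past the level filter, so its height there is a description. By an estimate only 203 fragments in all 12 tumors support the gene, and its effect was 1.09 (SE 0.42, limma adjusted p = 0.183). Col13a1, a transmembrane collagen, stayed between 0.0529 and 0.186 FPKM, with an estimated 112 fragments in all 12 tumors.

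**Figure D5:**
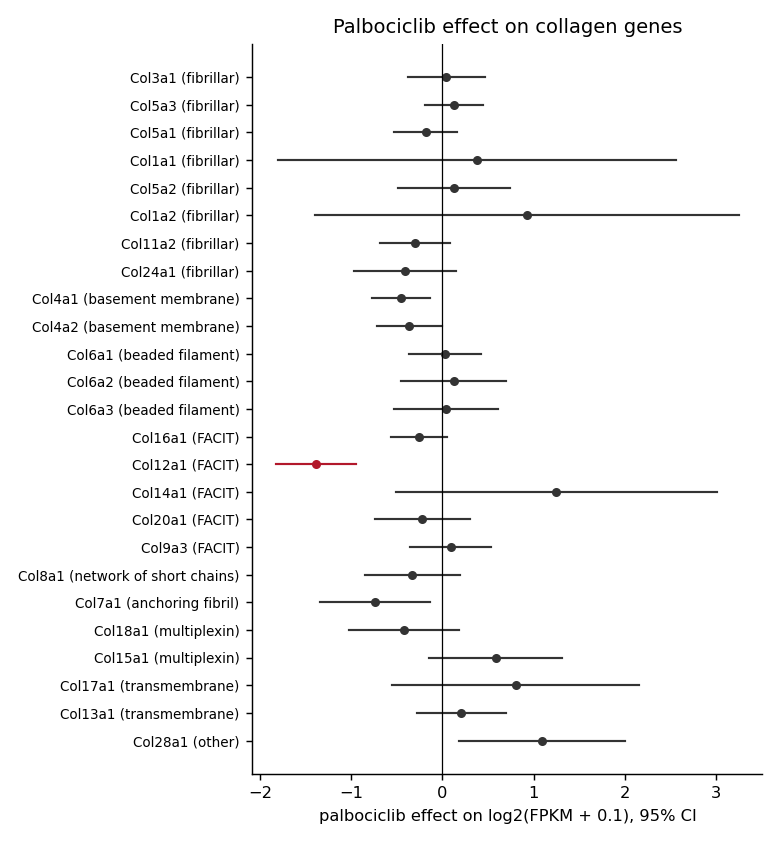
Palbociclib effect of the 25 collagen genes on the scale of log2(FPKM + 0.1), with the 95% confidence interval from limma, by class. Col12a1, in red, is the 1 gene with an adjusted p under 0.05, at -1.39, and the widest intervals are those of Col1a1 and Col1a2.

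In the separate comparisons limma called none of the 25 collagen genes. Over all genes, 0.143% were called for palbociclib against vehicle, 0.0% for anti-PD-1 against vehicle, 0.013% for the combination against vehicle, and 0.00651% each for the combination against palbociclib and against anti-PD-1, and 0.0% for the interaction. At an unadjusted p under 0.05, the collagen genes past the threshold numbered 2 for palbociclib against vehicle (13.8% of all genes), 3 for anti-PD-1 against vehicle (8.40%), 7 for the combination against vehicle (17.0%), 6 for the combination against palbociclib (4.52%), 4 for the combination against anti-PD-1 (11.8%) and 2 for the interaction (5.73%). All 7 and all 6 were lower in the combination. Col28a1, which passed the level filter through the palbociclib arm, is among the 2 and the 6, and among the 5 of the palbociclib effect.

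Most differences of the combination from the other arms were negative, except from anti-PD-1 (13 of 25). Against palbociclib, 24 of 25 differences were below 0, with Col13a1 the exception, and the median was -0.40 beside -0.04 for all genes. Against vehicle, 19 of 25 were below 0, with a median of -0.43 beside 0.03. Of all genes tested, 41.7% were above 0 against palbociclib, 53.6% against vehicle and 57.4% against anti-PD-1. In 8 of 25 genes all combination tumors were below all palbociclib tumors (9.15% of all genes tested), and in 8 of 25 below all vehicle tumors (11.6%). In 3 genes (Col4a1, Col12a1 and Col18a1) they were below all anti-PD-1 tumors (7.49%). These comparisons share the combination tumors. All anti-PD-1 tumors were below all vehicle tumors in 2 genes, Col3a1 and Col5a1 (7.09%), and all palbociclib tumors in 1, Col12a1 (6.47%). Without vehicle 1 the median of the combination against vehicle was -0.20. Anti-PD-1 against vehicle gave a median of -0.24 beside -0.03 for all genes (-0.08 without vehicle 1 and -0.36 without vehicle 2), and palbociclib against vehicle 0.06 beside 0.07. By class, the median palbociclib effect was 0.08 for the 8 fibrillar genes, -0.41 for both basement membrane genes, 0.04 for the 3 beaded filament genes and -0.22 for the 5 FACIT genes.

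Genes that make, export, bind or degrade collagen were examined through 7 lists, and in none did a gene pass the threshold in the palbociclib effect. At an unadjusted p under 0.05 there were 4 of 24 tested genes of procollagen modification and folding (1 higher and 3 lower), 2 of 13 of export and propeptide cleavage, 0 of 7 of crosslinking, 5 of 16 fibril-bound proteins (3 higher and 2 lower), 3 of 13 basement membrane partners, all lower, 5 of 12 receptors (2 higher and 3 lower) and 3 of 6 collagenases, all lower. Summed, this is 22 of 91, beside 20.5% of all genes tested. The list medians lay between -0.44 for collagenases and 0.29 for fibril-bound proteins.

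None of the most abundant genes of the lists passed the threshold either. Ppib, a proline isomerase that helps procollagen to fold, had 438 ± 12.9 FPKM under vehicle, 512 ± 103 under palbociclib, 504 ± 99.4 under anti-PD-1 and 484 ± 36.1 under the combination (SD, n = 3). Pcolce, which speeds removal of the carboxy-terminal propeptide, had a palbociclib effect of 0.21 (SE 0.15), and Pxdn, the peroxidase that crosslinks type IV collagen, one of -0.08 (SE 0.08). Thbs2, a matricellular protein, had an effect of -0.14 (SE 0.25), and Nid1, which links type IV collagen to laminin, one of -0.16 (SE 0.09). Itgb1, the shared chain of the collagen-binding integrins, had 160 ± 4.15 FPKM under vehicle, 143 ± 8.38 under palbociclib, 148 ± 6.04 under anti-PD-1 and 136 ± 8.44 under the combination, with an effect of -0.14 (SE 0.06, limma adjusted p = 0.232). Mmp14, a membrane-bound collagenase, had an effect of -0.22 (SE 0.09, limma adjusted p = 0.215), and its highest tumor was vehicle 2 (78.8 FPKM) and its lowest combination 1 (40.9 FPKM).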

How the data were processed

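Total RNA of 12 tumors, 3 in each of 4 arms, was sequenced by the study on an Illumina instrument. The authors deposited 1 table of FPKM per tumor for 34745 entries. The submitters' processing notes name HISAT2 and GRCm38 (mm10), and the counting tool, annotation and strand setting are not given in the sources used here. Of entries repeating a symbol (67, no collagen) the one with the highest mean was kept. FPKM summed to 261027 to 280080 per tumor, and FPKM scales each tumor to its own total, so that RNA of other tissue lowers all other values. Values were tested as log2(FPKM + 0.1), which understates changes of low genes, with limma 3.58.1 in R 4.3.3 (trend, 1 mean per arm, all 12 tumors) over genes with a mean of at least 0.1. Groups came from the labels, which do not say whether tumors of an arm came from separate mice, so p-values measure the spread between these samples. On simulated data with the palbociclib contrast, 200 of 15350 genes were altered. At a log2 size of 1, 143 were recovered with 9 false calls, and at a log2 size of 2, 187 with 7. These counts are over all 15350 genes. In the tumors, the median SD within arms was 0.24 over all genes tested and 0.47 over the collagen genes. Recovery at the spread of the collagen genes was not tested. False calls where tumors hold RNA of other tissues were not tested either. Correlations over tumors used 100000 permutations. Depth was estimated with GENCODE lengths and is rough, so no counting intervals are given. Positions and upstream sequences are from RefSeq on GRCm38.p6.

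The members, gene lists and tests were chosen with earlier results of these data known. Values in every tumor are given for collagens past the threshold, the 3 highest of the fibrillar, basement membrane and FACIT classes, the highest of each other class, those separating treated from untreated tumors, and the 4 largest palbociclib effects. Col1a1, Col6a3, Col11a2 and the genes sharing the 4 highest tumors with Col1a1 were added after their values were seen. Alternatives were other pseudocounts, filters and scalings, no trend, a replicate block, only the arms compared, and tumors left out. Python 3.11.15 with numpy 2.4.6, pandas 2.3.3, scipy 1.17.1 and matplotlib 3.10.9 was used.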

Additional observations from a re-analysis of the deposited data

How the results depend on the processing

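Of the alternatives, the Col12a1 effect lost its call with any FPKM above 0 kept (-1.39, 0 collagen genes called), without a trend (-1.39, 0 called), and without palbociclib 2, combination 1 and combination 2 together (-1.54, 0 called). That last choice leaves 1 combination tumor, assumed to vary like the other arms, and keeps palbociclib 1 and 3 with their fat and muscle genes, so it is no comparison free of other tissue. Leaving out single tumors gave effects from -1.57 to -1.29, and 0 to 3 collagen genes, 0 to 7 pathway genes and 0 to 772 of all genes were called. In the separate comparisons Col12a1 was called for the combination against vehicle with a pseudocount of 0.01 (1 gene), and 0 to 1 collagen genes when single tumors were left out, Col12a1 being called without combination 2 against both vehicle and anti-PD-1 and for palbociclib against vehicle. Without vehicle 1, palbociclib 3 and combination 2, the tumors with the most muscle RNA (an alternative chosen after seeing the data), it was called in the palbociclib effect (-1.48), against vehicle (1 collagen gene) and against anti-PD-1 (1), and 1 pathway gene (Lair1) was called. All genes called in the palbociclib effect numbered 70 with a mean of at least 1 FPKM, 11 with any FPKM above 0, 0 without a trend and 4 without palbociclib 2, combination 1 and combination 2. The cause was not tested.

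Directions turned only in effects far from the threshold. Quantile normalization gave -0.0175 for Col6a3, -0.11 for Col9a3 and -0.031 for Col13a1. Without palbociclib 2, combination 1 and combination 2, Col1a1 was -0.79, Col1a2 -0.26, Col3a1 -0.0332, Col5a2 -0.13, Col6a1 -0.12 and Col6a3 -0.0121, and without the 3 muscle-rich tumors Col3a1 was -0.0161. Single tumors left out gave ranges of -0.122 to 1.09 for Col1a1, -0.132 to 0.142 for Col3a1, -0.0199 to 0.313 for Col5a2, -0.131 to 0.147 for Col6a1, -0.0996 to 0.283 for Col6a2, -0.19 to 0.247 for Col6a3 and -0.0011 to 0.184 for Col9a3. The collagen medians ran, with single tumors left out, from -0.549 to -0.198 for the combination against vehicle, -0.364 to -0.0783 for anti-PD-1 against vehicle, -0.512 to -0.281 for the combination against palbociclib, -0.194 to 0.0448 for the combination against anti-PD-1, -0.0336 to 0.128 for palbociclib against vehicle and -0.0996 to 0.147 for the palbociclib effect. Whether the replicate numbers pair the tumors was not settled. Deviations from the arm means had r of -0.213 to 0.453 in 18 same-number pairs, 7 of them over 0.1. The other pairs had a median r of -0.0131, and their share over 0.1 was not counted. With the replicate number as a block, 1 collagen gene was called (Col12a1, limma adjusted p = 0.0351), 0 pathway genes, and 129 of all genes in place of 48.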
